A study of Mus musculus with 18 samples.

Results

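The messages carried by many ribosomes at once were compared with all cytoplasmic messages in a mouse osteosarcoma (mOS) cell line. The comparison set 3 Heavy libraries of control cells against 3 Total libraries of control cells, 6 of the 18 libraries in the series, over the 19862 genes of the table. The line came from tumours of mice with conditional loss of p53 and Rb, on a mixed background and with an age label of day 299 after birth. It carries a floxed Prmt1 gene (Prmt1 f/f) and stably expresses CreER, a Cre recombinase that 4-hydroxytamoxifen (4OHT) switches on. Heavy control and Total control both came from cells given the vehicle, ethanol, which the labels call wild type although they carry the floxed gene, CreER and the losses of the tumour of origin. Heavy knockout and Total knockout, used here to repeat the measurement, came from the same line given 4OHT. Lysates of cells treated with cycloheximide were spun through sucrose gradients, and Heavy denotes messages with more than 3 ribosomes, Light messages with fewer than 3 and Total the cleared lysate before the gradient. Depth was 35.7 to 44.2 M reads in the Heavy control libraries, against 32.8 to 52.1 M reads in the Total control libraries. The labels do not tell whether replicate libraries stand for separate cultures, and each p-value reflects only the spread among these libraries, which may be technical.

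During translation an initiating ribosome finds the start codon of a message, and elongating ribosomes then follow one another along the reading frame until the stop codon releases them. A message that holds many ribosomes sediments deep into a sucrose gradient and is called polysomal. The number it can hold is limited by the length of its reading frame and by how often ribosomes load, and cells keep selected messages off polysomes through leader structures, upstream reading frames or binding proteins. The values below are in CPM, which scales the reads of a gene to a total that is equal for all libraries, and so are shares. A higher share in Heavy is therefore not a rate of translation. In bulk lysates, fewer cells that use a message and less use of it per cell cannot be told apart.

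A message that made up more of the Heavy than of the Total libraries is called higher below, and the reverse lower. Of 17515 genes tested, 7724 were called (44.1%), with 2244 higher (12.8%) and 5480 lower (31.3%) in Heavy libraries, at an adjusted p under 0.05 (limma over all genes). At a change of at least 2-fold, 32 genes were higher (0.183%) and 2075 were lower (11.8%). Among the 11338 genes averaging at least 1 CPM, 60.4% were called, 19.4% higher and 41.0% lower, and the median log2 change was -0.23. Shares are relative, and the split of calls moved with the scaling. Median-of-ratios scaling gave 3965 higher (22.6%) and 3807 lower (21.7%), with a median of 0.07, and quantile normalization gave 4257 higher (24.3%) and 3330 lower, with a median of 0.09. Log2 changes below are of log2(CPM + 1) without rescaling, each with its standard error (SE), and are to be read against the median of -0.23. Counts of list members called are likewise to be read against the 19.4% higher and 41.0% lower of genes averaging at least 1 CPM. They cover all tested members, however, including those below 1 CPM. For lists with such members the 12.8% and 31.3% of all genes tested are the other base.

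Short and long messages were mostly lower in Heavy, and messages of intermediate coding length had medians near 0. Among genes averaging at least 1 CPM, the 200 messages whose coding sequence was at most 300 nt had a median log2 change of -1.69, and 189 of them were lower (94.5%). The 560 messages above 300 and up to 450 nt had a median of -0.90, with 75.4% lower. In the next bins the median was -0.39 up to 600 nt, -0.05 up to 900 nt and 0.13 up to 1200 nt, where 34.6% of 1595 messages were higher. It was 0.04 up to 1800 nt, -0.21 up to 2700 nt and -0.48 up to 4500 nt. Above 4500 nt the median was -0.94, and 455 of 570 messages were lower (79.8%). The highest median thus stood above 900 and up to 1200 nt, and both ends of the length range had lower ones. Across genes, which are not independent replicates, Spearman's rho between change and coding length was 0.45 over the 4529 genes of up to 1200 nt and -0.38 over the 6267 longer ones.

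The same pattern stood in each library. Messages of at most 300 nt made up 1.10%, 1.13% and 1.00% of the 3 Heavy libraries, against 3.64%, 3.47% and 3.44% of the 3 Total libraries. Messages over 4500 nt made up 1.72%, 2.00% and 1.97% of the Heavy libraries, against 2.87%, 2.91% and 3.05% of the Total libraries. Heavy and Total libraries did not overlap in either class. Under the other scalings the median at up to 300 nt was -1.37 with median-of-ratios scaling and -1.37 with quantile normalization. Above 900 and up to 1200 nt it was 0.43 with either, and over 4500 nt -0.66 and -0.57. Above 2700 and up to 4500 nt it was -0.19 and -0.16. The medians of all bins thus moved up, and those of intermediate length no longer lay near 0. A median-adjusted change is given below for single genes as the log2 change minus the median of the gene's coding-length bin.

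**Figure D1:**
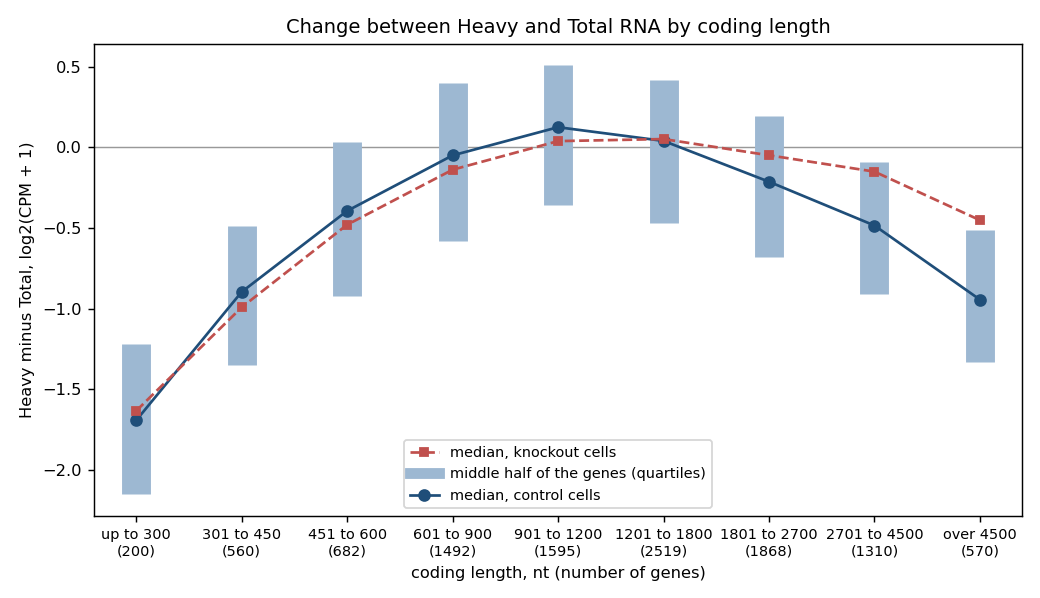
Change of messages by coding length. The x axis gives bins of coding length in nt, and the y axis the log2 change of Heavy over Total control libraries, with the median of each bin in control cells (circles), the quartiles of its genes (bars) and the median in knockout cells (squares, dashed line). The control medians are -1.69 at up to 300 nt, 0.13 between 900 and 1200 nt and -0.94 above 4500 nt.

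The shortest messages were among the lowest of all. Rpl41, a protein of the large ribosomal subunit with one of the smallest known reading frames, had 119, 140.2 and 112 CPM in the Heavy libraries, against 1785, 1854 and 1909 CPM in the Total libraries. Its log2 change of -3.90 (SE 0.20, adjusted p = 6.69e-09) was the lowest of any named gene with a mean of at least 5 CPM. Tmsb10, a thymosin that binds actin monomers, had 58.6, 71.2 and 51.5 CPM in Heavy, against 854, 698 and 726 CPM in Total (log2 change -3.64, SE 0.22, adjusted p = 1.44e-08). Every Heavy library was below every Total library for both genes, which was a condition for genes named at the ends of the range. Their whole reading frames show how few codons separate start and stop; the start codon is in capitals (GRCm38, minus strand, introns left out; Rpl41 within chr10:128548387-128548960 and Tmsb10 within chr6:72957618-72958012).
Rpl41: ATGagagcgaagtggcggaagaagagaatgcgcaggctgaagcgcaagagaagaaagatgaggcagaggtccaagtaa
Tmsb10: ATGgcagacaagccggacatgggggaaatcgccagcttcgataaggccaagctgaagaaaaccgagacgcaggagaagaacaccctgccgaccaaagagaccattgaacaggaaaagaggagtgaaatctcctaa
In a list of 43 tiny messages, 42 were lower and 0 higher, with a median of -1.92 and of -0.51 relative to the length bins. The same messages are also counted in those bins, so the counts are not a separate result. Tmsb4x, the other abundant thymosin, changed by -3.43, and Timm8b, which helps import proteins into mitochondria, by -2.91. Pfdn5, a prefoldin subunit, had the highest change of the list at -0.47, against the median of -0.23 over all genes averaging at least 1 CPM. In that list 1 message was not called.

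The longest messages were lower as well. Of 49 giant messages tested, 43 were lower and 0 higher, with a median of -1.44. Relative to the length bins, in which they are also counted, the median was -0.53 over the 43 with a value. Spen, a large transcriptional repressor, had 2.76, 5.29 and 4.64 CPM in Heavy, against 29.1, 31.9 and 33.0 CPM in Total (log2 change -2.66, SE 0.21, adjusted p = 1.03e-07). Cenpe, a kinetochore motor, had 2.51, 2.77 and 3.08 CPM in Heavy, against 25.1, 16.4 and 14.9 CPM in Total (log2 change -2.35, SE 0.24, adjusted p = 1.4e-06). The Heavy libraries lay below the Total libraries for both. Col7a1, the chain of anchoring fibril collagen and a message of 8832 nt outside that list, was higher by 0.52 (SE 0.15, adjusted p = 0.00826) and lay 1.47 above its length bin. Its exons overlap Mir711.

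At the high end, changes were smaller. Actg1, cytoplasmic gamma actin (chr11:120345687-120348495, GRCm38), had 11102, 8273 and 11410.4 CPM in Heavy, against 3575, 2575 and 4177 CPM in Total, the highest change at 1.59 (SE 0.25, adjusted p = 8.38e-05). Its exons overlap another annotated gene, Gm23419, and the microRNA gene Mir6935, which the table gave a change of 1.43, lies inside it. Dck, a kinase that salvages deoxynucleosides, had 95.6, 88.3 and 111 CPM in Heavy, against 46.9, 32.9 and 42.0 CPM in Total (log2 change 1.26, SE 0.18, adjusted p = 3.37e-05). Fkbp4, a co-chaperone of Hsp90, had 957, 904 and 935 CPM in Heavy, against 356, 384 and 428 CPM in Total (log2 change 1.26, SE 0.13, adjusted p = 1.81e-06). For these 3 genes every Heavy library exceeded every Total library, which was a condition for genes named at the ends of the range. Sec13, a coat and nuclear pore protein, changed by 1.13, Psmd6, a subunit of the proteasome lid, by 1.11, Fscn1, which bundles actin, by 1.07 and Taldo1, transaldolase of the pentose phosphate pathway, by 1.06. The protein-coding genes among the 12 highest had coding lengths of 780 to 1479 nt.

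**Figure D2:**
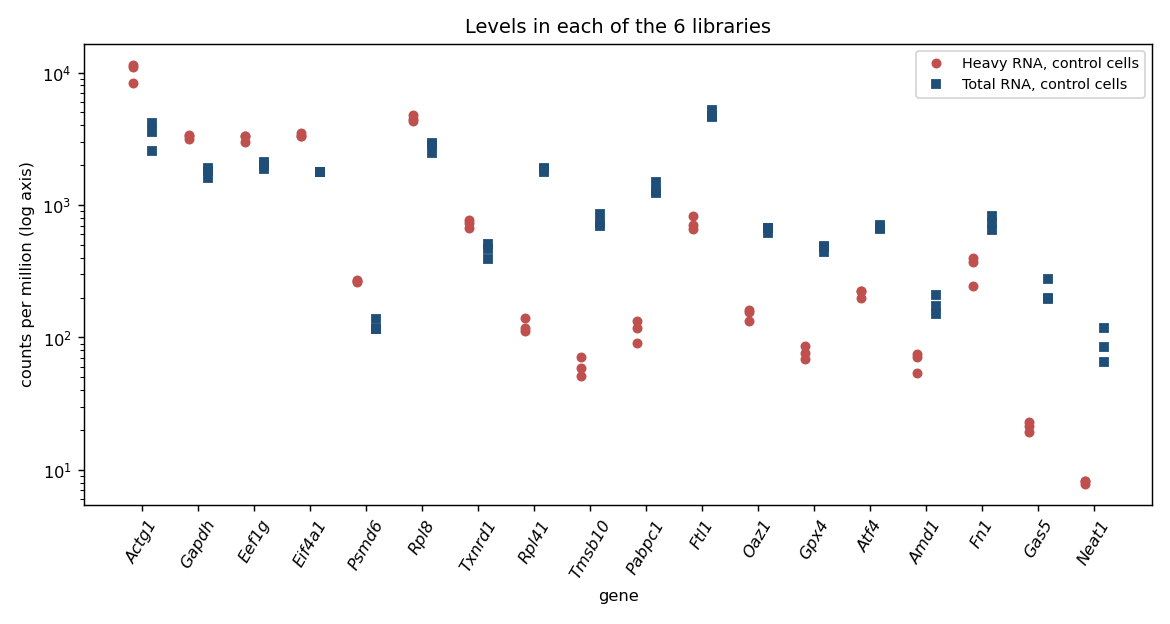
Levels of genes at both ends of the range. Points give the CPM of each Heavy and each Total control library on a log axis, Heavy left of Total for each gene. Rpl41 lies between 112 and 140.2 CPM in Heavy, against 1785 to 1909 CPM in Total, and Actg1 between 8273 and 11410.4 CPM in Heavy, against 2575 to 4177 CPM in Total.

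Ribosomal proteins, whose messages are short and abundant, followed length among themselves. Of 47 proteins of the large subunit, 11 were higher and 24 lower (median -0.56). The counts were 14 and 14 with median-of-ratios scaling and 9 and 22 with quantile normalization. Of 32 of the small subunit, 2 were higher and 16 lower (median -0.57). These became 7 and 10 with median-of-ratios scaling and 2 and 19 with quantile normalization. Up to 450 nt, 0 of 38 messages were higher and 32 were lower, with a median of -0.90. Over 600 nt, 11 of 22 were higher and 3 were lower, with a median of 0.39, and the 19 between had a median of 0.02. Spearman's rho between change and coding length was 0.77 over the 79 messages, given as a description across genes.

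Rps29, of the small subunit, had 80.6, 98.2 and 76.7 CPM in Heavy, against 665, 650.3 and 647 CPM in Total, with a coding length of 168 nt and a change of -2.93 (SE 0.20, adjusted p = 2.84e-08). Rpl3, of the large subunit and near the peptidyl transferase centre, had 2981, 2744 and 2848 CPM in Heavy, against 1666, 1699 and 1806 CPM in Total, with a coding length of 1209 nt and a change of 0.73 (SE 0.11, adjusted p = 4.19e-05). The short message was lower in every Heavy library and the long one higher. A few messages lay below others of their length, and these were chosen after their values were seen, as was Rpl3. Rps12 changed by -3.18, 2.28 below its length bin, and Rplp1, an acidic stalk protein, by -2.67. Rplp0, the base of that stalk, had 1999.8, 1803 and 1676 CPM in Heavy, against 4816, 5278 and 5463 CPM in Total and lay 1.63 below its bin (log2 change -1.51, SE 0.17, adjusted p = 3.09e-06). Rpl12, which joins the stalk and whose exons overlap Lrsam1, changed by -1.79, Rps2 by -1.17 and Rpsa by -0.93.

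**Figure D3:**
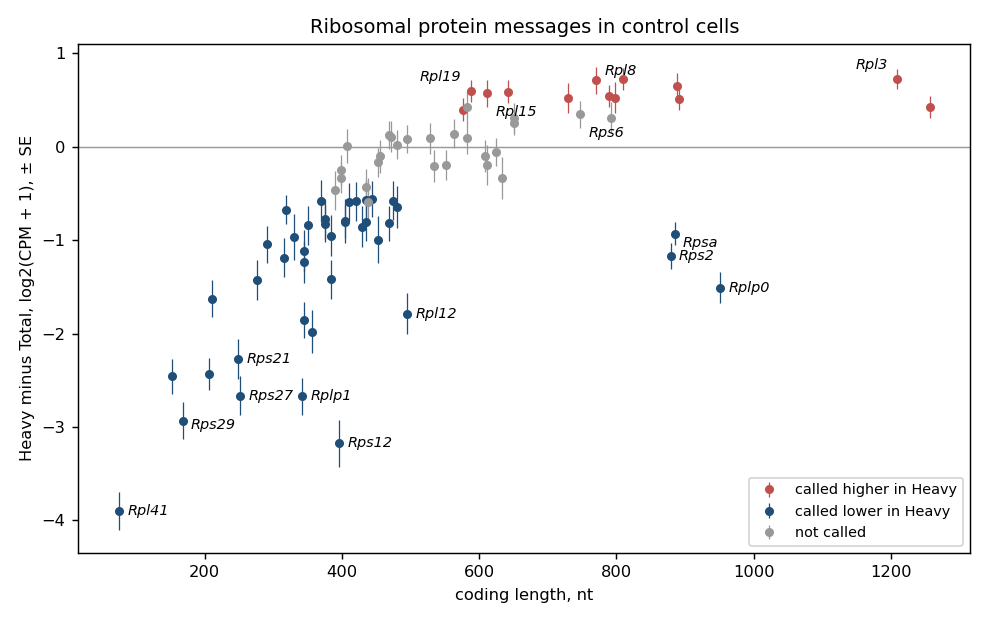
Ribosomal protein messages by coding length. The x axis gives coding length in nt and the y axis the log2 change of Heavy over Total control libraries, with a point and its SE for each of 79 messages, coloured by call. Short messages sit lowest, with a median of -0.90 up to 450 nt and 0.39 over 600 nt, and Rps12, Rplp1 and Rplp0 lie below others of their length.

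Many ribosomal protein messages are known to begin with a terminal oligopyrimidine tract (TOP), a C followed by a run of C and T at the cap through which growth signals set their translation. The search asked for C as the first transcribed base and at least 4 further C or T, on the transcribed strand at RefSeq starts, and 813 of 27025 genes matched (3.01%). Among tested genes averaging at least 1 CPM, 274 with the motif had a median of -0.31 and 8753 without it a median of -0.23. After subtraction of the length bins the medians were 0.01 with the motif and -0.000811 without it. Of the 58 ribosomal protein genes with a RefSeq start, 14 matched. A match depends on the exact RefSeq start, so genes without one may still begin with a TOP. The medians therefore do not compare messages with and without a TOP. The 14 had a median of -0.52 (1 higher, 7 lower) and the 44 without a match a median of -0.50 (9 higher, 21 lower). The first 30 transcribed bases of the 2 lowest and 2 highest of the 14 are given below because the same kind of start stood on messages with opposite values; the unbroken pyrimidine run is in capitals (RefSeq, GRCm38.p6).
Rps27: CCTTTCCggcggtgacgacctccctacgag
Rps21: CTCCTgcccaatagtgctgcggaggcacga
Rps6: CTCTTTTTCgtgacgcctcccaggcgctcg
Rpl15: CTTCCTTTCCTCTggcggcagccatcaggt
They lie at chr3:90213619-90213648 (minus), chr2:180257379-180257408 (plus), chr4:86857338-86857367 (minus) and chr14:18270957-18270986 (minus). Rps27 changed by -2.67 and Rps21 by -2.28, with coding lengths of 252 and 249 nt. Rpl15 was higher by 0.57 (SE 0.14, adjusted p = 0.00351) and Rps6 changed by 0.35 without passing the test (adjusted p = 0.0578), with coding lengths of 612 and 747 nt.

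Factors of the translation machinery moved in both directions. Of 43 initiation factors 17 were higher and 15 lower. Of 12 elongation and termination factors 5 were higher and 3 lower (6 and 1 with median-of-ratios scaling, 4 and 4 with quantile normalization). By comparison, 19.4% of all genes averaging at least 1 CPM were higher and 41.0% lower. Eif4a1, the helicase that unwinds leaders, had 3524, 3338 and 3331 CPM in Heavy, against 1777, 1768 and 1764 CPM in Total (log2 change 0.94, SE 0.10, adjusted p = 2.25e-06). Eif4ebp1, which holds the cap-binding protein inactive, averaged 95.2 ± 11.5 CPM in Heavy and 280.4 ± 23.0 CPM in Total (SD, n = 3 each). Its log2 change was -1.55 (SE 0.16, adjusted p = 1.4e-06). The groups did not overlap for either gene. Eef1a1, which brings aminoacyl-tRNA to the ribosome, had a change of 0.06 that did not pass the test (adjusted p = 0.75). Its sign turned under quantile normalization, and its exons overlap Gm26377. Eef1d, a subunit of the exchange factor of Eef1a1, was higher by 0.98, and its exons overlap Naprt. Of 22 other messages known for TOP starts, 11 were higher and 3 lower, with a median of 0.38.

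Pabpc1, the poly(A)-binding protein that bridges the tail and cap of messages (chr15:36595658-36609581), had the lowest change of that list. It had 90.4, 118 and 133 CPM in Heavy, against 1503, 1265 and 1231 CPM in Total (log2 change -3.55, SE 0.24, adjusted p = 2.97e-08). Every Heavy library was below every Total library, a condition for the genes named at the ends of the range, Pabpc1 among them. The change lay 3.34 below the length bin of Pabpc1. The Pabpc1 leader is known to hold an A-rich stretch that the protein itself binds. The 30 leader bases richest in A, 22 of them A, show it (GRCm38, chr15:36608840-36608869, minus strand). Of 15944 genes with a leader of at least 30 bases, 0.728% held a window as rich in A.
Pabpc1: gaaaaaacccaaaaaaaatttacaaaaaaa

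Upstream reading frames in the leader capture scanning ribosomes before they reach the main start. Among genes averaging at least 1 CPM, the median change was -0.11 for 5132 genes with no ATG in the leader, -0.26 for 2408 with 1 and -0.47 for 1020 with 4 or more. Relative to the length bins these medians were 0.08, -0.03 and -0.22. Of 15 messages known for regulatory upstream frames, 10 were lower and 0 higher, with a median of -1.01 and of -0.55 relative to the bins. Atf4, the transcription factor of the integrated stress response, had 224, 224 and 200.3 CPM in Heavy, against 675, 712 and 662 CPM in Total (log2 change -1.66, SE 0.15, adjusted p = 4.76e-07). Amd1, which makes the aminopropyl donor for polyamines, had 53.6, 74.4 and 71.0 CPM in Heavy, against 208, 172 and 152 CPM in Total (log2 change -1.41, SE 0.21, adjusted p = 4.88e-05). Heavy and Total did not overlap for either. The Atf4 leader also holds an upstream frame of 59 codons that ends beyond the main start and is not printed. The shortest upstream frame of each leader, with its stop, is in capitals (GRCm38, chr15:80255576-80255605, plus strand, and chr10:40302152-40302181, minus strand).
Atf4: gccaccATGGCGTATTAGaggcagcagtgc
Amd1: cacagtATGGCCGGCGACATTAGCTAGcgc
Ddit3, a stress factor whose exons overlap Mars and Gm4189, changed by -1.54. Atf5, a relative of Atf4 with a like leader, chosen after its values were seen and overlapping Il4i1 and Nup62, changed by -1.28. Azin1, which inhibits antizyme, had a change of -0.17 (adjusted p = 0.608), and Ifrd1 and Ppp1r15b had changes of 0.19 and 0.16 that did not pass the test.

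Antizymes, which target ornithine decarboxylase for degradation, need a ribosome to shift frame, and polyamines promote the shift. Oaz1 had 157, 160.1 and 134 CPM in Heavy, against 613, 669 and 676 CPM in Total (log2 change -2.11, SE 0.21, adjusted p = 1.18e-06), and Oaz2 changed by -1.42 (SE 0.15). Both were lower in every Heavy library, and Oaz1 lay 2.06 below its length bin. The stop of the first Oaz1 frame, its codon 69, is in capitals (GRCm38, chr10:80828283-80828312, plus strand).
Oaz1: cggtggtgctccTGAtgtccctcacccacc
Of 15 polyamine genes, 6 were lower and 1 higher, Paox, an oxidase of acetylated polyamines, at 0.75. Odc1, ornithine decarboxylase, had a change of -0.52 that did not pass the test (adjusted p = 0.164).

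Ferritin messages carry an iron-responsive element, a leader hairpin that iron regulatory proteins bind when iron is scarce. Ftl1, the ferritin light chain, had 829, 664 and 706 CPM in Heavy, against 4585, 4736 and 5192 CPM in Total (log2 change -2.73, SE 0.20, adjusted p = 5.16e-08). Its exons overlap Gm10252 and Gm22133. Fth1, the heavy chain, had 352, 318 and 289 CPM in Heavy, against 1791, 1786 and 1873 CPM in Total (log2 change -2.51, SE 0.20, adjusted p = 1.04e-07). Both were lower in every Heavy library and lay 2.33 and 2.11 below their length bin. The leader windows around CAGTG, the letters of the hairpin's loop, are nearly the same; CAGTG, searched on the transcribed strand and found in 23.9% of the same 15944 leaders, is in capitals (GRCm38, chr7:45459778-45459807, minus strand, and chr19:9982732-9982761, plus strand).
Ftl1: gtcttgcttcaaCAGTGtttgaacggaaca
Fth1: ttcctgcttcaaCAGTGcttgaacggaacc
Tfrc, the transferrin receptor, whose element lies after the coding sequence, changed by -1.31 (SE 0.17, adjusted p = 1.03e-05). Of 13 iron genes, 9 were lower and 0 higher, with a median of -0.59, but 5 were lower and 1 higher under either other scaling, with medians of -0.33 with median-of-ratios scaling and -0.29 with quantile normalization.

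Selenoproteins read an in-frame TGA, a stop codon elsewhere, as selenocysteine with the help of a hairpin after the coding sequence. Of 20 tested, 5 were higher and 10 lower, with a median of -0.57. A split by where the TGA lies was chosen after the values were seen and is given with no test, over the 17 messages with a mean of at least 1 CPM. With the TGA in the first 60% of the frame, 9 of 9 messages were lower, at -3.60 to -1.26 (median -1.83). With it in the last 40%, 5 of 8 were higher and 1 lower, at -0.85 to 0.68 (median 0.46).

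Gpx4, which reduces lipid peroxides, had 76.6, 86.1 and 69.1 CPM in Heavy, against 439, 493 and 479.7 CPM in Total (log2 change -2.60, SE 0.17, adjusted p = 2.55e-08). Gpx1, its cytosolic relative, had 40.4, 48.1 and 35.5 CPM in Heavy, against 269, 299 and 284 CPM in Total (log2 change -2.76, SE 0.18, adjusted p = 2.71e-08). Txnrd1, thioredoxin reductase, had 735, 670.1 and 773 CPM in Heavy, against 503, 393 and 467 CPM in Total (log2 change 0.68, SE 0.19, adjusted p = 0.00753). Both peroxidases were lower and the reductase higher in every Heavy library. Positions of the TGA are those of the transcript chosen for each gene, and which transcripts the cells made was not tested. The TGA, in capitals, is codon 47 of 201 in Gpx1, codon 129 of 253 in Gpx4 and codon 498 of 499 in Txnrd1 (GRCm38, plus strand, chr9:108339439-108339465, chr10:80054725-80054751 and chr10:82896025-82896045).
Gpx1: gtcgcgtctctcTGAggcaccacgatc
Gpx4: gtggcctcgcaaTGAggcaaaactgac
Txnrd1: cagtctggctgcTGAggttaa
Sepw1, a small selenoprotein with the TGA at codon 13 of 88, had the lowest change of the list at -3.60. Selk, of 282 nt and chosen after its values were seen, was higher by 0.58 and lay 2.27 above its length bin, with the TGA at codon 92 of 94.

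**Figure D4:**
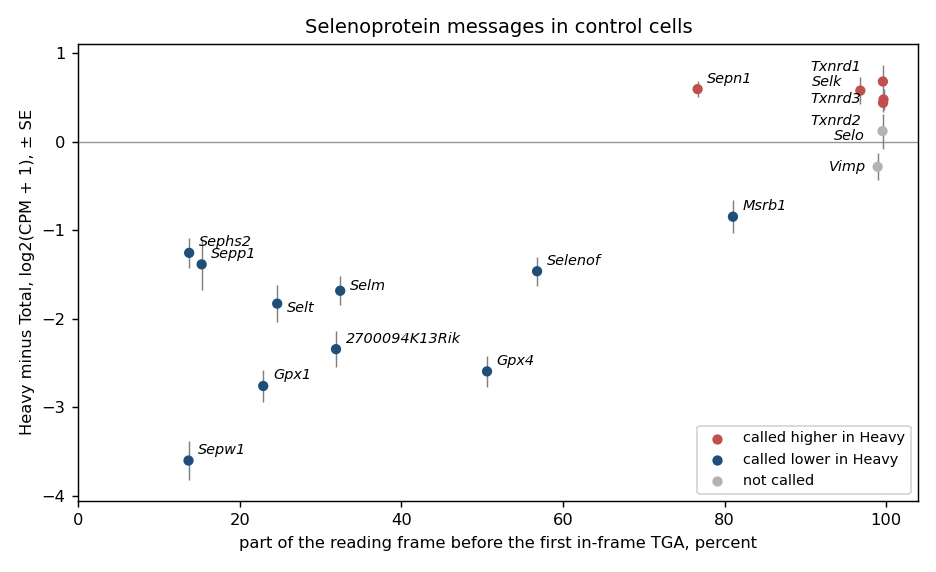
Selenoprotein messages by the place of the in-frame TGA. The x axis gives the percent of the reading frame before the TGA and the y axis the log2 change of Heavy over Total control libraries, with a point and its SE for each message, coloured by call. The 9 messages with an early TGA lie at -3.60 to -1.26, and the 8 with a late TGA at -0.85 to 0.68.

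Nuclear-encoded subunits of the respiratory chain and ATP synthase were more often lower than higher. Of 77, 14 were higher and 43 lower, with a median of -0.69 and of 0.12 relative to the length bins. The shares over all genes averaging at least 1 CPM were 19.4% higher and 41.0% lower. Uqcr10, a small subunit of complex III, had 20.1, 25.1 and 19.1 CPM in Heavy, against 135, 136 and 137 CPM in Total (log2 change -2.62, SE 0.20, adjusted p = 7.15e-08). Atp5b, the catalytic subunit of ATP synthase, had 2438, 2339.6 and 2270.3 CPM in Heavy, against 1156, 1216 and 1242 CPM in Total (log2 change 0.96, SE 0.12, adjusted p = 6.32e-06). The groups did not overlap for either. Of 78 mitochondrial ribosomal proteins 20 were higher and 28 lower, a split that turned to 30 higher and 18 lower with median-of-ratios scaling and to 28 and 22 with quantile normalization. Mrpl42, of 426 nt, changed by -2.52 and lay 1.63 below its length bin.

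Most proteasome subunits were higher. Of 31, 24 were higher and 1 lower, with a median of 0.74 and of 0.78 relative to the length bins. Psmc5, an ATPase of the base, had 553, 525 and 510.3 CPM in Heavy, against 262, 282 and 287 CPM in Total (log2 change 0.93, SE 0.12, adjusted p = 7.62e-06). Psmd1, a scaffold of the base whose exons overlap Gm21972, was the member that fell, chosen after its values were seen. It had 32.3, 48.5 and 55.8 CPM in Heavy, against 155, 133 and 139 CPM in Total (log2 change -1.66, SE 0.22, adjusted p = 1.74e-05). In every Heavy library Psmc5 was above and Psmd1 below the Total libraries. Together the 31 messages made up 1.34% to 1.44% of the Heavy libraries, against 0.856% to 0.871% of the Total libraries.

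Other housekeeping lists differed in their balance. Of 38 lysosome genes 20 were higher and 3 lower (median 0.43), and Atp6v1g1, a small subunit of the proton pump, changed by -1.54. Of 20 glycolysis enzymes 9 were higher and 4 lower (median 0.35), against 14 and 1 with median-of-ratios scaling and 11 and 1 with quantile normalization. Tpi1, triosephosphate isomerase, which overlaps Spsb2, changed by 0.99, and Gapdh had 3365, 3142 and 3313 CPM in Heavy, against 1587, 1807 and 1892 CPM in Total (log2 change 0.90, SE 0.14, adjusted p = 8.41e-05). Of 13 tubulins 7 were higher and 0 lower (median 0.52), and 13 were higher with median-of-ratios scaling and 8 with quantile normalization. Of 26 actins and contractile genes 12 were higher and 6 lower, with the long myosin Myh10 at -2.00 and the actin Actg1 at 1.59. Of 22 genes listed with the cytosolic aminoacyl-tRNA synthetases 8 were higher and 6 lower (median -0.11). The 8 include Aimp2, which is not itself a synthetase, at 0.93. Of 26 chaperones 8 were higher and 6 lower (median 0.10), against 14 and 4 with median-of-ratios scaling and 6 and 6 with quantile normalization.

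**Figure D5:**
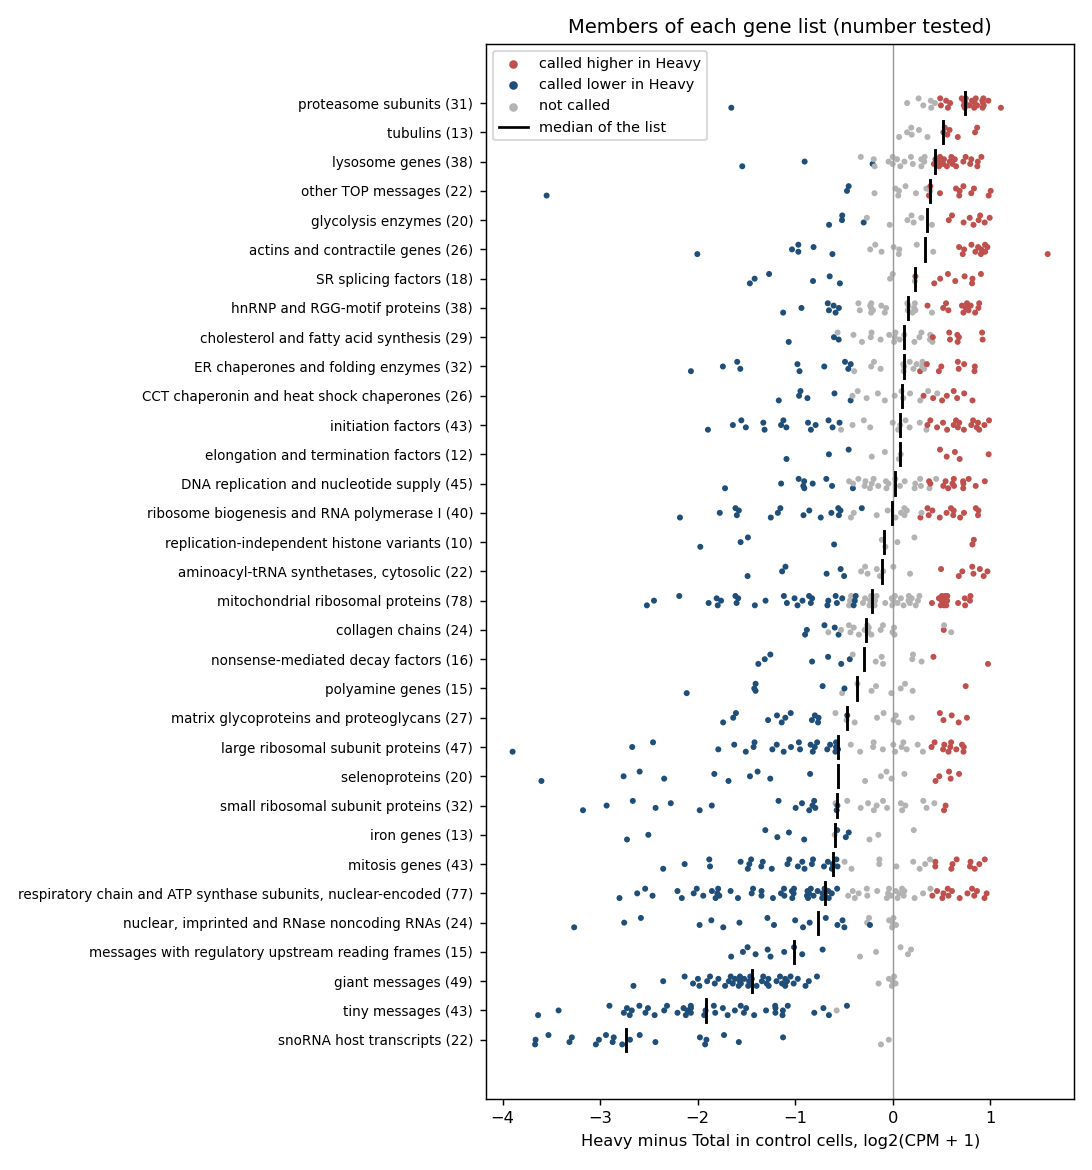
Gene lists by change. Each line is a list, the x axis is the log2 change of Heavy over Total control libraries, points are members coloured by call, and the bar is the list's median. The median is 0.74 for proteasome subunits, -1.92 for tiny messages and -2.73 for snoRNA host transcripts, against -0.23 over all genes averaging at least 1 CPM.

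Messages for secreted and matrix proteins are translated at the endoplasmic reticulum and are characteristic of bone-forming cells. Of 24 collagen chains, 1 was higher and 5 were lower, a balance that turned to 3 higher and 1 lower with median-of-ratios scaling and was 3 and 3 with quantile normalization. Their median was -0.27, and 0.31 relative to the length bins over the 18 chains with a value. Col1a1, a chain of bone collagen, had 1042, 1571 and 1366 CPM in Heavy, against 1317, 2214 and 1952 CPM in Total. The groups overlapped, and the change of -0.45 did not pass the test (SE 0.24, adjusted p = 0.152). Of 27 matrix glycoproteins and proteoglycans tested, 5 were higher and 13 lower (median -0.47). Sparc, a collagen-binding protein of bone, was higher by 0.76 (SE 0.24, adjusted p = 0.0145), a call that ended without Heavy control replicate 2 or Total control replicate 1. Lamb1, a laminin chain with a coding length of 5502 nt, changed by -1.74 (SE 0.19, adjusted p = 2.76e-06). Of 32 genes for folding and entry at the endoplasmic reticulum 9 were higher and 10 lower, with the small channel subunit Sec61g at -2.07. The counts were 17 and 5 with median-of-ratios scaling and 8 and 9 with quantile normalization. Of 29 genes of cholesterol and fatty acid synthesis 8 were higher and 3 lower.

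Cell cycle messages were split. Of 43 mitosis genes 10 were higher and 24 lower (median -0.61, and -0.40 relative to the length bins). Of 45 replication genes 14 were higher and 10 lower (22 and 7 with median-of-ratios scaling, 17 and 9 with quantile normalization). Cdk1, the mitotic kinase, had 553, 497 and 503 CPM in Heavy, against 271, 267 and 267 CPM in Total (log2 change 0.94, SE 0.11, adjusted p = 5.91e-06). Top2a, the topoisomerase of dividing cells, had 48.5, 58.5 and 57.1 CPM in Heavy, against 201, 173 and 173 CPM in Total (log2 change -1.72, SE 0.13, adjusted p = 7.96e-08). Heavy lay above Total for Cdk1 and below it for Top2a in every library. Of 67 replication-dependent histone genes 26 were lower and 0 higher, but the list held only 0.0114% to 0.0166% of the Heavy libraries, against 0.0205% to 0.0254% of the Total libraries. By comparison, 31.3% of all genes tested and 41.0% of those averaging at least 1 CPM were lower. The 67 are not all separate measurements, as Hist1h2bq and Hist1h2br had the same CPM in every Heavy and Total control library. H2afx, the member with the highest mean, had 54.7, 58.6 and 40.9 CPM in Heavy and was not called (adjusted p = 0.173). Under quantile normalization 0 of the 67 were lower, 4 were higher and the median of -0.35 became 0.04.

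RNA-binding and stress-response lists were mixed. Of 18 SR splicing genes 9 were higher and 6 lower, with Srsf1 at 0.90, overlapping Gm11508, and the long Srrm2 at -1.42, overlapping Elob. Of 38 hnRNP and RGG-motif genes 13 were higher and 7 lower (21 and 3 with median-of-ratios scaling, 13 and 5 with quantile normalization). Of 40 ribosome biogenesis genes 14 were higher and 16 lower, a balance that turned to 18 and 10 with median-of-ratios scaling and to 15 and 13 with quantile normalization. Of 16 genes of nonsense-mediated decay 2 were higher and 7 lower, against 5 and 4 with median-of-ratios scaling and 4 and 5 with quantile normalization. Of 10 replication-independent histone variants 2 were higher and 4 lower, against 3 and 3 with median-of-ratios scaling and 3 and 4 with quantile normalization. Of 34 immediate early and AU-rich messages 2 were higher and 5 lower, which turned to 12 and 3 with median-of-ratios scaling and to 10 and 4 with quantile normalization. Jund, an AP-1 subunit overlapping Gm11175, changed by -1.51.

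Most noncoding transcripts measured were lower in Heavy. Of 309 long noncoding RNAs with a mean of at least 1 CPM, 200 were lower and 32 higher, with a median of -0.81. Of 22 snoRNA host transcripts tested, 20 were lower and 0 higher, with a median of -2.73. Gas5, whose introns hold snoRNAs, had 22.8, 19.4 and 21.3 CPM in Heavy, against 275, 194 and 197 CPM in Total (log2 change -3.32, SE 0.26, adjusted p = 1.07e-07). Neat1, the scaffold of nuclear paraspeckles, had 8.26, 8.26 and 7.85 CPM in Heavy, against 119, 84.0 and 65.6 CPM in Total (log2 change -3.27, SE 0.21, adjusted p = 2.44e-08). All Heavy libraries lay below all Total libraries for both, a condition for the genes named at the ends of the range, as both are. Of 24 nuclear, imprinted and RNase RNAs tested, 17 were lower and 0 higher. Malat1, another nuclear RNA, changed by -1.74 (SE 0.49, adjusted p = 0.00868), a call that ended without Total control replicate 1, in which it had 8.13 CPM.

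Prmt1, the arginine methyltransferase that the line can delete, had 412, 378 and 370.1 CPM in Heavy, against 256, 277 and 285 CPM in Total, a change of 0.50 that did not pass the test (SE 0.21, adjusted p = 0.0705). Of 8 tested members of its family 3 were higher and 1 lower, against 5 and 0 with median-of-ratios scaling and 3 and 0 with quantile normalization. Of 17 osteoblast genes tested 1 was higher and 5 lower, against 3 and 5 with median-of-ratios scaling and 4 and 4 with quantile normalization. Together the list made up 0.437% to 0.583% of the Heavy libraries, against 0.504% to 0.687% of the Total libraries. Of markers of macrophages, endothelium, epithelium, osteoclasts, cartilage and fat or muscle, no list exceeded 0.00892% of any Heavy control library or 0.00978% of any Total control library.

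The changes in knockout cells came from other libraries than those in control cells, but the calls of both rest on 1 estimate of the spread over all 18 libraries and are not independent tests. Prmt1 had 64.4, 121 and 145 CPM in Heavy knockout libraries, against 147, 176 and 173 CPM in Total knockout libraries. All 6 knockout values lay below all 6 control values. In knockout cells 41.9% of genes were called, 2270 higher and 5064 lower (28.9%). Of the 2244 genes higher in control cells, 1750 were also higher in knockout cells, 78.0% of the control calls and 77.1% of the knockout calls, and 2 were lower. Of the 5480 lower genes, 4143 were lower in knockout cells, 75.6% of the control calls and 81.8% of the knockout calls, and 1 was higher. In knockout cells messages of up to 300 nt had a median of -1.63, and those over 4500 nt a median of -0.45, against -1.69 and -0.94 in control cells. The Heavy knockout library numbered 1 stood apart, with 0.654% of its reads in messages of up to 300 nt and 3.48% in those over 4500 nt. Without the knockout libraries numbered 1 the 2 knockout medians were -1.37 and -0.57.

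Light over Total shares the Total libraries with Heavy over Total, so its values are set beside them with no comparison. Messages of up to 300 nt had a median of 0.61 and those above 300 and up to 450 nt of 0.80 in Light over Total, where 16.5% of all genes were higher and 28.0% lower. Over 4500 nt the median was -1.03. The tiny messages had a median of 0.79, and Oaz1 had 0.76, Eif4ebp1 0.83 and Atf4 0.32. Ftl1 had -1.86, Fth1 -1.54 and Pabpc1 -2.85 in Light over Total, against -2.73, -2.51 and -3.55 in Heavy over Total.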

How the data were processed

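RNA sequencing of Heavy, Light and Total RNA gave a single table of 19862 genes and 18 libraries. Its values are log2(CPM + 1), as deposited by the authors. STAR, edgeR and the build mm10 are named without versions, per the submitters' processing notes. The rule that assigned reads to genes and strands (not given in the sources used here) leaves overlapping genes and close paralogs uncertain. Undoing the log2 gave whole reads for 100% of values within 0.1, and thereby the depths.

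The test, for genes detected in 3 or more libraries, was limma 3.58.1 (R 4.3.3, trend and robust variances) on 6 group means over the 18 libraries. A call needed a p under 0.05 after Benjamini-Hochberg adjustment over the 17515 genes tested. Alternatives were other scalings, voom on recovered reads, filters, a pseudocount of 0.1, a replicate block, fewer libraries and each library left out. Coding lengths, leaders and windows came from GENCODE transcripts (GRCm38), preferring those with a CCDS tag and then the longest coding sequence. Start sites came from RefSeq. Python 3.11.15, pandas 2.3.3, numpy 2.4.6 and matplotlib 3.10.9 were used. Scripts were tested on simulated data. Of 1217 list entries, 1204 matched the table.

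Genes named are the 12 highest and 12 lowest changes among called genes that average 5 CPM or more and whose groups do not overlap, without unnamed gene models, then a fixed set, and of each of 43 lists the 3 members with the lowest p and the 3 with the highest mean. Only some are printed, and others named for their values were chosen after those were seen. Members and lists were chosen with earlier results of these data known.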

Additional observations from a re-analysis of the deposited data

Results flagged for a closer look

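In 2 of 17515 genes the change of Heavy over Total differed between control and knockout cells at an adjusted p under 0.05 (limma), and in 1388 at an unadjusted p under 0.05. A difference below is the control change minus the knockout change. For 4833412C05Rik on chromosome 7 the change was -0.29 in knockout cells and -1.42 in control cells, a difference of -1.13 (SE 0.12, adjusted p = 0.000775). It had 0, 0 and 0.093 CPM in Heavy knockout libraries, against 0.235, 0.24 and 0.293 CPM in Total knockout libraries. In control cells it had 0.352, 0.224 and 0.249 CPM in Heavy, against 2.79, 2.21 and 2.26 CPM in Total. For Cngb1, a subunit of a cyclic nucleotide-gated channel on chromosome 8, the change was -1.04 in knockout cells and -0.01 in control cells, a difference of 1.02 (SE 0.15, adjusted p = 0.0295). It had 0.346, 0.343 and 0.341 CPM in Heavy knockout libraries, against 2.23, 1.73 and 1.37 CPM in Total knockout libraries, and at most 0.0797 CPM in any control library of the comparison. Each gene was near 0 in both fractions of one of the cell states. The log2(CPM + 1) scale pulls changes at such levels toward 0. Neither difference therefore shows that the ratio of Heavy to Total CPM differed between the states. In both states 4833412C05Rik was lower in every Heavy library than in every Total library.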

How the results depend on the processing

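Of 248 named genes, 185 kept their sign and call under every alternative run. Higher calls were 4257 with quantile normalization and 3965 with median-of-ratios scaling, and lower calls were 3330 with quantile normalization; the cause was not tested. The median of messages up to 300 nt minus that of all genes was -1.57 with voom and -1.56 with a pseudocount of 0.1, and above 900 and up to 1200 nt it was 0.40 with voom and 0.39 with that pseudocount. The median with a matched TOP start minus that without a match was -0.12 with quantile normalization, -0.11 with voom and -0.0052 among genes with a coding length. Signs turned for Eef1a1 (-0.35) and Sox9 (0.018) with quantile normalization, and for Nop56 (0.016) and Vegfa (0.32) with median-of-ratios scaling. Left-out libraries gave 6632 to 7194 calls, 1911 to 1993 of them higher and 4663 to 5201 lower.

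With the replicate number as a block, 8299 genes were called, 2517 higher and 5782 lower. The deviations of same-numbered Heavy and Total libraries from their group means correlated at -0.51, 0.14 and -0.27 over 9498 genes. Those of differently numbered libraries correlated at -0.52 to 0.48. Deviations from a mean of 3 libraries constrain one another, so these values cannot tell whether the numbers pair the libraries. Without the knockout libraries numbered 1, an alternative chosen after seeing the data, 2853 genes were higher and 6153 lower.

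At depths of 32.8 to 52.1 M reads, levels near 0 CPM limit what can be seen, and log2(CPM + 1) understates the changes of low genes.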
